A study of Mus musculus with 6 samples.

Results

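Ptk2 and Ptk2b encode the 2 focal adhesion kinases of the mouse, and the circular RNAs (circRNAs) made from both genes were followed in A53T and WT brain. The members were taken by host gene name alone: 33 circRNAs of Ptk2 and 2 of Ptk2b, together 35 of the 18136 circRNAs in the table. The numbers of circRNAs and of reads of both hosts were known when they were proposed, so those totals are a description without a test, and the tests below compare A53T with WT. A circRNA is a closed RNA ring. It is recognised by reads across its back-splice junction, at which a later exon runs into an earlier one. The study sequenced circRNA-enriched total RNA of mouse brain in 6 libraries, 3 labelled A53T and 3 labelled WT (wild type). A53T marks a transgenic Parkinson disease mouse; its promoter, age, sex and any treatment are not stated in the labels. Brain is the tissue named for each sample, and substantia nigra of the midbrain the one named for the series. Whether each sample was its own animal is not said, and the spread behind each p-value may therefore be technical.

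Focal adhesion kinase, the product of Ptk2, is a cytoplasmic tyrosine kinase that is recruited to sites where integrins bind the extracellular matrix. Its close relative PYK2, the product of Ptk2b, is abundant in forebrain neurons and is activated by calcium. Both proteins are built alike, with an N-terminal FERM domain that holds the enzyme inactive, a central kinase domain and a C-terminal focal adhesion targeting domain. In neurons both have been studied in axon growth, dendritic spines and synaptic plasticity. The circRNA reads below do not measure the kinase proteins or the linear mRNAs.

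The libraries held 29839 to 33313 junction reads in A53T and 25217 to 36390 in WT, so that WT replicate 3, with 25217, was the shallowest. Of the 10 dopaminergic neuron markers examined, 9 had no circRNA in the table, Th and Slc6a3 among them, and of the 10 microglia markers none had any. Of the 10 pan-neuronal markers 6 had circRNAs, of the 9 astrocyte markers 3, and of the 10 oligodendrocyte markers 2. Reads of the dopaminergic list, all from Kcnj6, ran from 22 to 49 in the A53T libraries and from 14 to 27 in the WT libraries. Reads of the pan-neuronal list ran from 19 to 43 in A53T and from 26 to 60 in WT, those of the astrocyte list from 9 to 16 in A53T and from 10 to 13 in WT, and those of the oligodendrocyte list from 0 to 3 in A53T and from 0 to 2 in WT. The part of these differences in the results was not tested. The genotype was not checked here.

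The back-splice junctions below are those on which the results turn, shown so that the exon ends each ring shares can be read. Each runs 5′ to 3′. Lower case gives the end of the last exon and capitals give the start of the first exon, to which it is joined. Junctions that touch untranslated sequence are shown with 15 bases on each side, the others with 20. All letters come from the GENCODE M21 transcripts (GRCm38), not from reads.
Ptk2 exon 2 with the 122-nt exon: aattcttgtcataaaGTCTCTGGGCTACAA
Ptk2 exon 2 with the 104-nt exon: cctgtttgacccaagGTCTCTGGGCTACAA
Ptk2 exons 2 to 3: gctactgatgtcaggGTCTCTGGGCTACAA
Ptk2 exons 17 to 22: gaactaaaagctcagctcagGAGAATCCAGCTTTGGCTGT
Ptk2 exons 17 to 21: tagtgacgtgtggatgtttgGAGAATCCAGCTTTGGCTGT
Ptk2 exons 15 to 22: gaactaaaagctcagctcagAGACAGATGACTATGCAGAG
Ptk2b exons 3 to 5: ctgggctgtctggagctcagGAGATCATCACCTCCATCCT
Ptk2b exon 2: cagacagagatccagGACTGCAATGTGCCG
The capitals are identical in the first 3 lines, which share the start of exon 2, and in the junctions of exons 17 to 22 and 17 to 21, which share the start of exon 17. The lower-case letters are identical for exons 17 to 22 and 15 to 22, which share the end of exon 22.

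Ptk2 was among the hosts with most alternative circles, whereas Ptk2b had as many as the median host. Only 4 of the 5414 named host genes had more circRNAs than the 33 of Ptk2, and the median host had 2. The Ptk2 circRNAs held 504 junction reads, and 37 hosts had more. Ptk2b had 2 circRNAs and 13 reads; 2083 hosts had more reads, and the median host had 8. Of the Ptk2 circRNAs 30 were classed as exonic, 2 as intronic and 1 as antisense, and for each of the 30 exonic ones a run of annotated exons fitted both the span and the predicted length. Both Ptk2b circRNAs were exonic and matched as well. Inner exons and lengths are predicted, because the table gives only the ends of each ring. Of the Ptk2 circRNAs, 12 were read in a single library and 3 in all 6, and those 3 held 353 of the 504 Ptk2 reads.

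Most exonic Ptk2 reads came from circles that started at exon 2 or at exon 17. Exon numbers refer to the 32-exon coding transcript, in which exons 1 and 2 are wholly 5′ untranslated (5′ UTR) and exon 3 holds the start codon. Other Ptk2 transcripts have 4 further exons without coding sequence between exons 2 and 3, called by their lengths of 104, 122, 155 and 312 nt. The 155-nt exon comes from a transcript annotated as a retained intron, which has no coding sequence. It is grouped below with the 5′ UTR exons. In circles matched to that transcript, the start codon was placed by the 32-exon transcript. Exon 2 was the first exon of 7 circles with 273 reads, 56.2% of the exonic Ptk2 reads. Exon 17, well inside the coding sequence, was the first exon of 3 circles with 125 reads, 25.7%. Exons 3 and 15 followed with 24 reads each, from 5 and 3 circles. The first exon varied less than the last one: 12 first exons against 18 last exons were used. Counted as circles, 23.3% of the 30 began with exon 2, against 27.7% of all matched circRNAs of the table, numbered in their own transcripts.

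**Figure D1:**
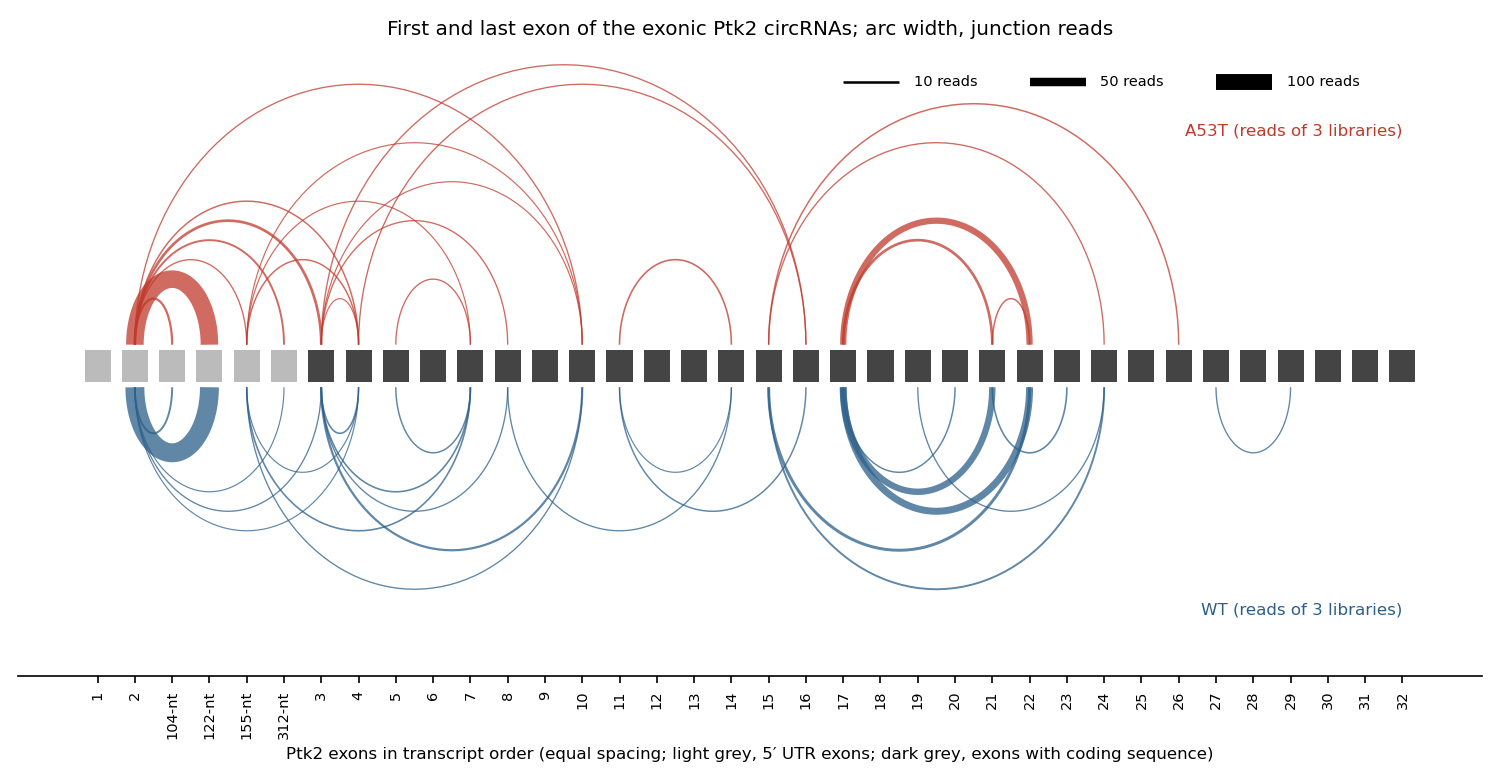
Each arc joins the first and the last exon of an exonic Ptk2 circRNA, with A53T above and WT below the row of exons and the arc's width set by the junction reads of 3 libraries. The widest arcs join exon 2 and the 122-nt exon (111 reads in A53T, 120 in WT), and the next ones start at exon 17.

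The most read Ptk2 circle was made of 5′ UTR exons only. It joined the 122-nt exon back to exon 2 (chr15:73263608-73266593, mm39, minus strand), with a predicted length of 219 nt. It took 45.8% of all Ptk2 reads. Among the 50 hosts with at least 20 circRNAs, the most read circle took 12.7 to 62.0%, and 4 hosts had a higher share than Ptk2. Its reads numbered 32, 32 and 47 in A53T replicates 1, 2 and 3, against 44, 54 and 22 in WT replicates 1, 2 and 3. The groups overlapped, and WT held both the highest and the lowest library. Its level, in edgeR counts-per-1000000 units (CPM, with TMM factors), was 1174 ± 243 in A53T and 1220 ± 339 in WT (SD, n = 3 each). A53T stood at -0.07 relative to WT on the log2 scale (standard error 0.28, 95% interval -0.65 to 0.51; edgeR quasi-likelihood over all 1214 circRNAs tested, Benjamini-Hochberg adjusted p = 0.999). Its sign turned without A53T replicate 1, A53T replicate 2 or WT replicate 2.

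The other 5′ UTR circles used the same exon 2 start with another last exon, and each was rare. Exon 2 with the 104-nt exon (chr15:73264193-73266593, minus strand, 201 nt) had 0, 6 and 2 reads in A53T, against 2, 4 and 0 in WT. Exon 2 with the 312-nt exon (409 nt) had 4, 1 and 1 reads in A53T, against 0, 1 and 0 in WT. Exon 2 with the 155-nt exon (252 nt) had 2 reads, both in A53T replicate 2. Together these 3 had 16 reads in A53T and 7 in WT, while the ring with the 122-nt exon had 111 in A53T and 120 in WT.

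An antisense circRNA lay at exactly the ends of the ring of exon 2 and the 104-nt exon, on the plus strand. It had 9, 0 and 2 reads in A53T, against 0, 0 and 2 in WT, so most of its reads came from A53T replicate 1. The ratio of A53T to WT reads, over scaled library sizes, was 5.57 with an exact 95% counting interval of 1.22 to 51.8, and without A53T replicate 1 the reads were 2 in A53T and 2 in WT. In the edgeR quasi-likelihood fit without a filter, which takes in the spread between libraries, the log2 interval was -0.69 to 5.21 and included 0 (Benjamini-Hochberg adjusted p = 0.469). The library kit marks strand, per the labels' protocols, but the labels do not state whether strand was used in calling circRNAs, so reads of the 2 strands cannot be told apart with certainty. Its predicted length, 2401 nt, equals its span and so includes intron sequence.

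The start codon of Ptk2 lay in 11 of the 30 exonic circles, which held 55 reads. The most read of them were exons 2 to 3 and exons 3 to 10. Exons 2 to 3 (chr15:73214982-73266593, minus strand, 324 nt) had 3, 2 and 6 reads in A53T, against 0, 2 and 0 in WT. The ratio of A53T to WT was 5.57 (exact 95% counting interval 1.22 to 51.8), the same as for the antisense circRNA because both had 11 reads in A53T and 2 in WT. In the fit without a filter the log2 interval was -0.64 to 5.33 and included 0 (edgeR quasi-likelihood, Benjamini-Hochberg adjusted p = 0.469). The A53T and WT libraries did not overlap in CPM, but the lowest A53T library had 62.4 CPM, against 56.2 CPM in WT replicate 2. Of the 3281 circRNAs with at least 10 reads, 213 (6.49%) did not overlap with A53T higher. Exons 3 to 10 (chr15:73175669-73215208, minus strand, 899 nt), which code for codons 1 to 289 of the 1052 of the kinase in its N-terminal part, where the FERM domain lies, had 0, 1 and 0 reads in A53T, against 7, 0 and 1 in WT. Most of those WT reads lay in WT replicate 1, and the groups overlapped. The ratio of A53T to WT was 0.127 (exact 95% counting interval 0.00286 to 0.945), while the log2 interval of the fit without a filter was -6.21 to 1.1 (edgeR quasi-likelihood, Benjamini-Hochberg adjusted p = 0.469). Over all 11 circles with the start codon the reads were 6, 10 and 11 in A53T, against 12, 7 and 9 in WT.

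The circles that started at exon 17 lay in the exons that code for the kinase domain. Exons 17 to 22 (chr15:73128883-73140742, minus strand, 698 nt) hold codons 445 to 677. They had 10, 8 and 17 reads in A53T, against 19, 15 and 6 in WT. The level was 370.0 ± 141 CPM in A53T and 403.6 ± 163 CPM in WT (SD, n = 3 each), and the groups overlapped widely. The log2 fold change was -0.15 (standard error 0.50, 95% interval -1.15 to 0.86; edgeR quasi-likelihood, Benjamini-Hochberg adjusted p = 0.999), and it turned sign without A53T replicate 2 or WT replicate 1.

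Exons 17 to 21 (chr15:73131397-73140742, minus strand, 493 nt, codons 445 to 609) gave the lowest fold change among the tested Ptk2 circles. They had 2, 5 and 4 reads in A53T, against 15, 11 and 10 in WT. Every A53T library lay below every WT library, also in CPM, with 115.5 ± 45.0 CPM in A53T and 378.6 ± 65.8 CPM in WT (SD, n = 3 each). The log2 fold change was -1.67 (standard error 0.66, 95% interval -3.01 to -0.33; edgeR quasi-likelihood, unadjusted p = 0.0162, Benjamini-Hochberg adjusted p = 0.727). The difference did not pass after adjustment. Of the 1214 circRNAs tested 0 passed (0%), by edgeR as by DESeq2, and at an unadjusted p under 0.05 there were 57 by edgeR (4.7%) and 51 by DESeq2. Lower in A53T at an unadjusted p under 0.05 were 29 circRNAs (2.39%), against 1 of the 3 Ptk2 circles tested. Groups that did not overlap, with A53T lower, were found for 74 circRNAs (6.1%), against the same 1 of 3, and with A53T higher for 63 (5.19%), against 0 of 3. Leaving out 1 library moved the log2 fold change between -1.92 and -1.39. The unadjusted p rose above 0.05 without A53T replicate 1 (0.0598) or WT replicate 1 (0.0587), by edgeR quasi-likelihood. It ran from 0.0153 to 0.0316 when any other library was left out.

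**Figure D2:**
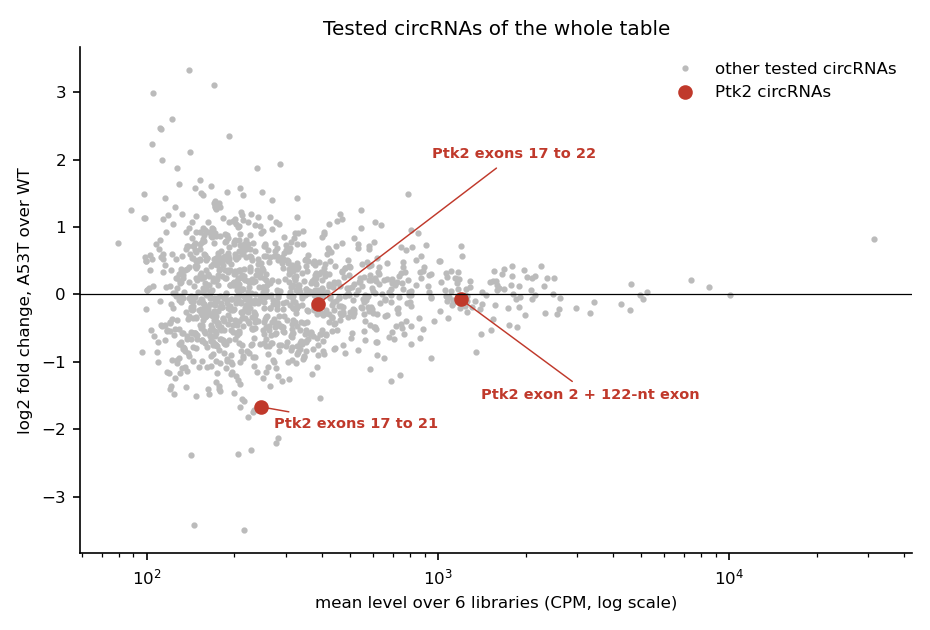
Each point is 1 of the 1214 tested circRNAs, with its mean level over 6 libraries in CPM on a log axis and its log2 fold change of A53T over WT. Exons 17 to 21 of Ptk2 lie at -1.67, within a cloud that reaches further both ways at that level, and the other 2 Ptk2 circles lie near 0.

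Exon 22 is what the longer of both exon 17 rings holds in addition. This 205-nt coding exon is printed as it stands in the reference transcript, with the last 20 bases, which form the junction, in capitals.
Ptk2 exon 22: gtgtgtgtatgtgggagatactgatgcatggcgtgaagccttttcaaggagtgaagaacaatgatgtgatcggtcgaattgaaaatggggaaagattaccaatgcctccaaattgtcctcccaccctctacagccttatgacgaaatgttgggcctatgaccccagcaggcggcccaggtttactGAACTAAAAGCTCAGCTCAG
Exon 22 is followed by an intron of 14556 nt and exon 21 by one of 2309 nt in the reference. Of the reads that joined either exon to exon 17, exon 22 took 83.3% in A53T replicate 1 (10 of 12 reads, 95% Wilson interval 55.2 to 95.3%), 61.5% in A53T replicate 2 (8 of 13, 35.5 to 82.3%) and 81.0% in A53T replicate 3 (17 of 21, 60.0 to 92.3%). In WT it took 55.9% in replicate 1 (19 of 34, 39.5 to 71.1%), 57.7% in replicate 2 (15 of 26, 38.9 to 74.5%) and 37.5% in replicate 3 (6 of 16, 18.5 to 61.4%). The shares did not overlap between the groups, although the intervals of A53T replicate 2 and WT replicate 2 overlapped widely. Of the 262 pairs of tested circRNAs of a host that share a first exon, 20 (7.63%) had shares that did not overlap between the groups in either direction. The split uses the reads of exons 17 to 21 given above, so it is not an observation independent of their lower level in A53T. The pair was singled out after its reads had been seen, so no test was made.

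**Figure D3:**
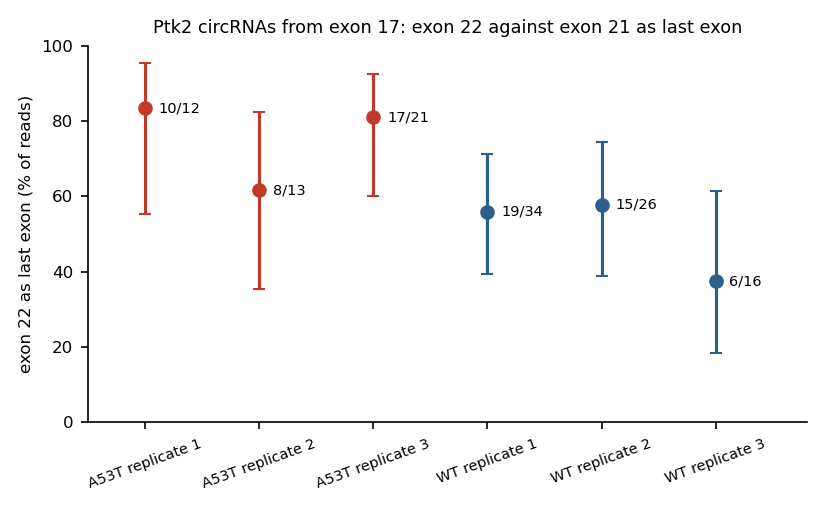
Points give, for each library, the percent of reads from the exon 17 start that ended at exon 22 and not at exon 21, with 95% Wilson intervals and the read counts beside them. The A53T libraries run from 61.5 to 83.3% and the WT libraries from 37.5 to 57.7%.

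Among the circles that started at exon 15, exons 15 to 22 were read in WT only. This ring (chr15:73128883-73148762, minus strand, 853 nt, codons 393 to 677) had 0 reads in each A53T library, against 5, 7 and 1 in WT. With 3 reads over the A53T group as a floor and the 13 WT reads taken as they stood, the level was 4.28-fold lower in A53T than in WT. The floor covers counting error of the A53T reads only, so this value is not a lower limit of the difference. The ring fell under the filter of the test, and without a filter it did not pass (log2 interval -8.94 to -1.21, edgeR quasi-likelihood, unadjusted p = 0.0101, Benjamini-Hochberg adjusted p = 0.469). Of all 18136 listed circRNAs, 86 (0.474%) were read in all 3 WT libraries and in no A53T library, and of the 3281 with at least 10 reads 12 (0.366%) were, this one among them. The opposite pattern, read in all 3 A53T libraries and in no WT library, held for 129 (0.711%), with no Ptk2 or Ptk2b circle among them. Exons 15 to 24 (1052 nt) had 1, 0 and 1 reads in A53T, against 2, 4 and 0 in WT, and exons 15 to 26 (1322 nt) had 1, 0 and 2 in A53T and none in WT. WT replicate 3 had 1 read over the 3 circles from exon 15, while WT replicates 1 and 2 had 7 and 11.

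**Figure D4:**
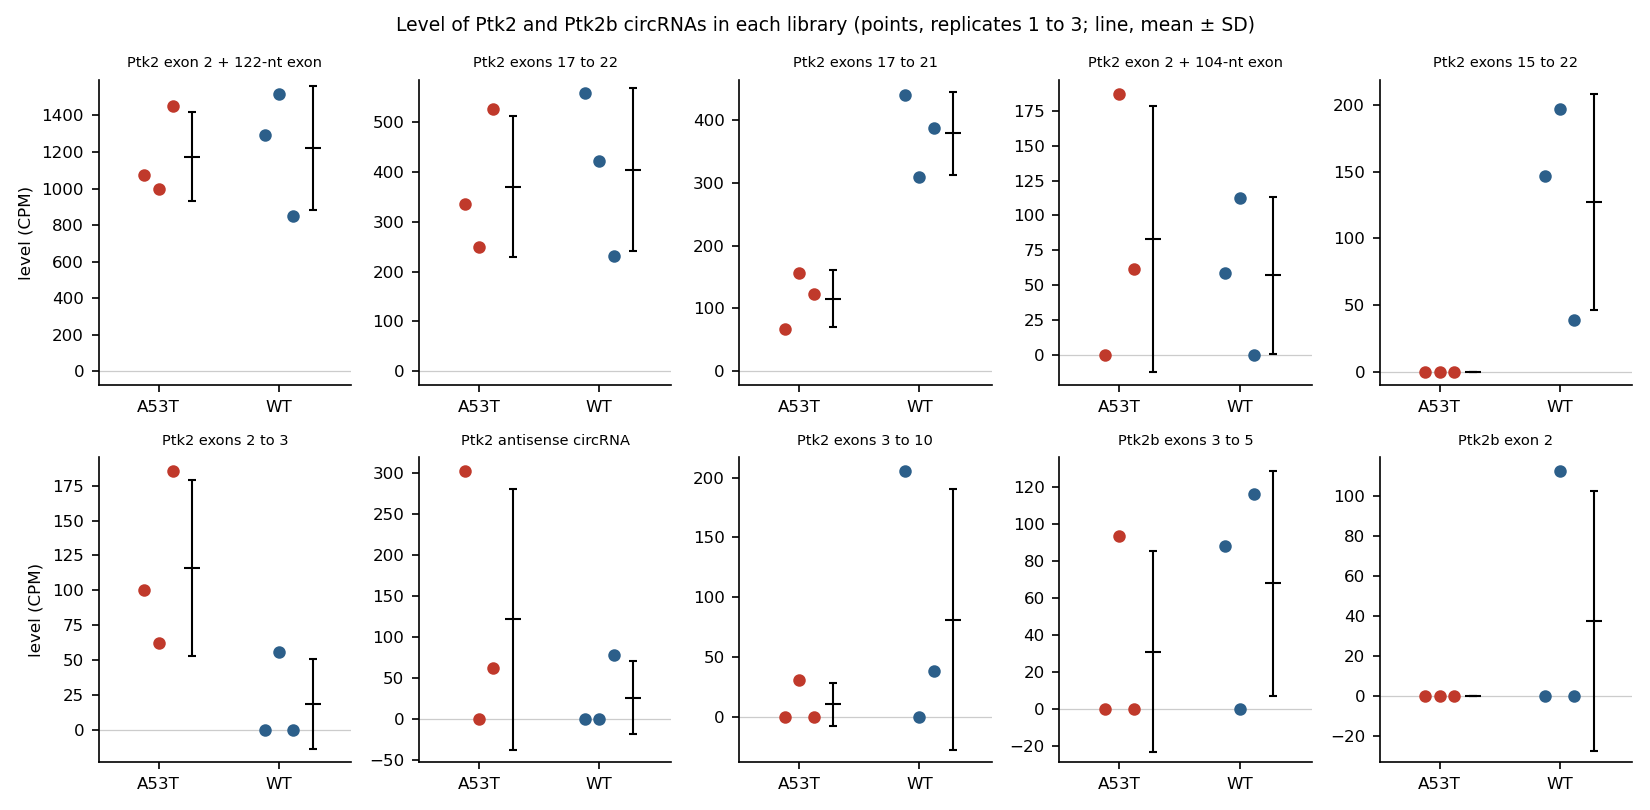
Points show the level in CPM in each library for the 8 most read Ptk2 circRNAs and both Ptk2b circRNAs, with A53T left of WT, and lines give the mean ± SD of 3 libraries; a line may reach below 0, where no level can lie. Exons 17 to 21 and exons 15 to 22 of Ptk2 are lower in every A53T library than in every WT library. For exons 15 to 22, WT replicate 3 had 1 read, against 0 in each A53T library. Exons 2 to 3 are higher in every A53T library, but A53T replicate 2 and WT replicate 2 had 2 reads each and differ by scaling only.

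Grouped by what the exons hold, the Ptk2 circles of coding exons only had a lower level in every A53T library than in every WT library. The levels of those of 5′ UTR exons only overlapped between the groups, but their shares of the Ptk2 reads did not. The 15 coding-only circles had 586.2, 562.9 and 824.3 CPM in A53T, against 1323, 1263 and 992.5 CPM in WT, and the groups did not overlap. Among sums over all circles of a tested host gene 4.79% did not overlap with A53T lower. How often such a class within a host does so, in CPM or in share, was not computed. The coding-only circles took 25.0, 25.4 and 30.0% of the Ptk2 reads in A53T, against 43.1, 40.0 and 43.1% in WT. The 4 circles of 5′ UTR exons only had 1241, 1282 and 1527 CPM in A53T, against 1383, 1620 and 873.4 CPM in WT. They took 52.9, 57.7 and 55.6% of the Ptk2 reads in A53T, against 45.1, 51.3 and 37.9% in WT. The means were 55.4 ± 2.41% in A53T and 44.8 ± 6.69% in WT (SD, n = 3 each), and every A53T library lay above every WT library. The shares of the classes add up to a whole, so those of the 2 classes are not independent. Without exons 17 to 21 and exons 15 to 22, the other 13 coding-only circles had 517.2, 406.6 and 702.2 CPM in A53T, against 721.7, 768.7 and 555.8 CPM in WT, and the groups overlapped. The grouping was made after the reads had been seen and was not tested.

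**Figure D5:**
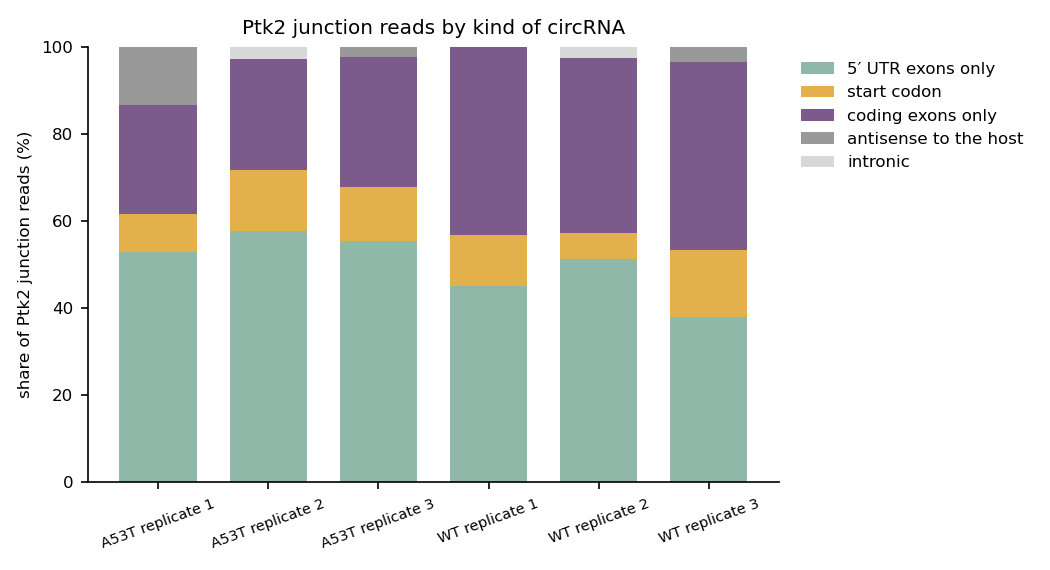
Bars split the Ptk2 junction reads of each library, in percent, by what the circle's exons hold. Coding-only circles take 25.0 to 30% in the A53T libraries and 40.0 to 43.1% in the WT libraries.

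Summed over all its circles, Ptk2 differed little between the groups. It had 68, 71 and 90 reads in A53T, against 102, 115 and 58 in WT. In CPM these were 2345, 2220 and 2748 in A53T, against 3067, 3157 and 2303 in WT, so that WT replicate 3 lay among the A53T libraries. The mean was 2438 ± 276 CPM in A53T and 2842 ± 470 CPM in WT (SD, n = 3 each). The log2 fold change was -0.23 (standard error 0.20, 95% interval -0.62 to 0.17; edgeR quasi-likelihood over 1377 host genes, Benjamini-Hochberg adjusted p = 0.991). Of these 1377 hosts 0 passed (0%) by edgeR as by DESeq2, with 66 (4.79%) at an unadjusted p under 0.05 by edgeR and 48 by DESeq2. Lower in A53T at an unadjusted p under 0.05 were 30 hosts (2.18%), and groups did not overlap for 66 hosts with A53T lower (4.79%) and for 78 with A53T higher (5.66%); Ptk2 was in none of these. The value was -0.38 without WT replicate 3 and -0.36 without A53T replicate 3, over 1.5 times the value with all libraries; neither passed (adjusted p = 0.930 and 0.920 in the same test).

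The number of Ptk2 circles seen and the share of the most read one were compared between A53T and WT over libraries. In A53T 12, 15 and 13 Ptk2 circles had at least 1 read, against 14, 17 and 13 in WT, a difference in means of -1.33 (two-sided exact permutation test, p = 0.6, adjusted p = 0.6 over Ptk2 and Ptk2b). That difference was -0.17 without WT replicate 2, -0.67 without A53T replicate 1 and -2.17 without A53T replicate 2 or WT replicate 3. The number of circles seen depends on depth, for which it was not adjusted. WT replicate 2 was the deepest library, with 36390 junction reads, and WT replicate 3 the shallowest, with 25217. The ring of exon 2 and the 122-nt exon took 47.1, 45.1 and 52.2% of the Ptk2 reads in A53T, against 43.1, 47.0 and 37.9% in WT. The difference in means was 5.44 percentage points (two-sided exact permutation test, p = 0.2), and 3.07 without WT replicate 3 or 3.39 without A53T replicate 3. With 3 libraries against 3 the exact test cannot go below p = 0.1.

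Ptk2b had reads at the limit of what these depths can show. Exons 3 to 5 (chr14:66424892-66427683, minus strand, 347 nt, codons 69 to 184 of 1009) had 0, 3 and 0 reads in A53T, against 3, 0 and 3 in WT. Exon 2 (chr14:66450761-66451001, minus strand, 241 nt), which holds the start codon, had 4 reads, all in WT replicate 2. Both rings lie in the N-terminal part, where the FERM domain lies, and they take neighbouring exons. Summed, Ptk2b had 0, 3 and 0 reads in A53T, against 3, 4 and 3 in WT. The ratio of A53T to WT was 0.304 with an exact 95% counting interval of 0.0537 to 1.18, which includes equal levels. A count of 0 allows up to 0.0101% of the junction reads in A53T replicate 1 and up to 0.00901% in A53T replicate 3. These limits of single libraries are close to the 0.00907 to 0.0119% measured in the WT libraries. The interval over the groups leaves the difference undetermined at this depth. Each library held at most 1 kind of Ptk2b circle; 0, 1 and 0 were seen in A53T, against 1, 1 and 1 in WT (two-sided exact permutation test, p = 0.4, adjusted p = 0.6). The log2 ratio of Ptk2 to Ptk2b reads, with 0.5 added to each, was 7.10, 4.35 and 7.5 in A53T, against 4.87, 4.68 and 4.06 in WT (two-sided exact permutation test, p = 0.3), and the groups overlapped. The difference in means of 1.78 became 2.76 without A53T replicate 2 and 1.19 without A53T replicate 3. With 1 added in place of 0.5 it was 1.23. A53T replicates 1 and 3 had 0 Ptk2b reads, so the size of their ratios is set by the number added.

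The 30 exonic Ptk2 circles varied in length and base composition. Their predicted lengths ran from 201 to 1364 nt with a median of 521 nt, against 572 nt for all 12794 matched circRNAs of the table, and they had a median of 5 exons, against 4. The GC content ran from 37.7 to 56.7%, with 38.8% in the most read ring. The intron before the first exon had a median length of 21693 nt over the 30 circles and the intron after the last exon one of 5860 nt, against 4159 nt for the 31 introns of the coding transcript; circles that share an exon share its intron. In 12 of the 30 the length was a multiple of 3 nt, so that a reading frame can pass round the ring, against 38.7% of all matched circRNAs.

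Reading frames were looked for in the reference sequence of each ring, from any ATG and across the junction. In exons 17 to 22 the longest ran for 222 codons, and in exons 17 to 21 for 146 codons. The ring of exon 2 and the 122-nt exon had no frame longer than 25 codons. In 4 rings a frame met no stop codon at all, namely exons 5 to 7, 11 to 16, 19 to 24 and 4 to 16; each had at most 5 reads over all libraries. Such a frame is a property of the sequence, and translation was not measured in these data.

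Host genes with a read profile like that of Ptk2 were sought among the other 1376 tested hosts, by the root mean square difference of centred log2 CPM over the 6 libraries. The 3 nearest were Parp11, Cpsf6 and Zfp516, at 0.11, 0.12 and 0.12 on the log2 scale, against a median of 0.53 over all tested hosts. They were picked as the nearest of 1376, so they lie below the median by choice. Cpsf6, which encodes a subunit of the mRNA cleavage factor, had 62, 72 and 77 reads in A53T, against 90, 112 and 63 in WT. For Ptk2b the nearest were Camsap1, Syt1 and Cacna2d1, at 0.14, 0.14 and 0.20; its profile rests on 13 reads. The 6 libraries are the only points of each profile.

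Genes that act with the 2 kinases were described from lists, and no member passed the test in either direction. Among 41 regulators and substrates of the kinases, 26 had circRNAs and 8 were tested, 4 with positive and 4 with negative log2 fold changes, with a median of -0.08 against 0.01 for all tested hosts. Arhgap26, a GTPase-activating protein that binds focal adhesion kinase, had 2760 ± 772 CPM in A53T and 3187 ± 279 CPM in WT (log2 fold change -0.21). Arhgap10, a relative of Arhgap26 that binds PYK2, had 1158 ± 741 CPM in A53T and 2013 ± 862 CPM in WT (SD, n = 3 each). Its log2 fold change was -0.80 (standard error 0.33, unadjusted p = 0.0240, Benjamini-Hochberg adjusted p = 0.913, edgeR quasi-likelihood), and it was -1.49 without A53T replicate 2, -0.51 without A53T replicate 3 and -0.39 without WT replicate 1. Arhgef28, a guanine nucleotide exchange factor, stood at 0.46 and Asap2, an Arf GTPase-activating protein that binds PYK2, at 0.44 on the same log2 scale. Leaving out single libraries gave 0.088 to 0.84 for Arhgef28 and 0.047 to 0.82 for Asap2, and -0.46 to -0.086 for Arhgap26.

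The focal adhesion scaffold list had 19 of 35 genes with circRNAs and 5 tested, 2 positive and 3 negative, with a median log2 fold change of -0.07. Among its most read members were the adaptor gene Sorbs2 at -0.50, the actin regulator gene Enah at 0.63 and the LIM protein gene Lpp at -0.07, which turned positive without A53T replicate 1 or A53T replicate 3. Of 36 integrins and matrix ligands 12 had circRNAs and 2 were tested, the integrin subunit gene Itga8 at 1.31 and Tnr, a matrix glycoprotein of the brain, at 1.74. Leaving out single libraries gave 0.71 to 1.86 for Itga8 where it could still be tested, and 1.25 to 3.57 for Tnr, the highest without WT replicate 2. Itga8 had 12, 0 and 15 reads in A53T, against 0, 8 and 3 in WT, and the groups overlapped. Of 27 genes of the calcium and glutamate inputs to PYK2 23 had circRNAs and 11 were tested, 4 positive and 7 negative, with a median of -0.24. Among them the protein kinase C genes Prkce and Prkcb stood at -0.20 and -0.32, the NMDA receptor subunit gene Grin2b at -0.24, which turned positive without WT replicate 1, and the synaptic scaffold gene Dlg1 at 0.34. Of 27 other non-receptor tyrosine kinases 5 had circRNAs and 1 was tested, Fer, at -0.45 (standard error 0.38). Of the markers, Syt1 stood at -0.77 and Map2 at -0.38 in the pan-neuronal list, Kcnj6 at 0.96 in the dopaminergic list, and Slc4a4 at -0.31 and Slc1a2 at 1.45 in the astrocyte list. Kcnj6 had 1201 ± 399 CPM in A53T and 613 ± 111 CPM in WT (SD, n = 3 each). Its groups did not overlap in CPM. Its unadjusted p was 0.00644 (standard error 0.34, edgeR quasi-likelihood), the smallest among the list genes, with an adjusted p of 0.703. Without A53T replicate 2 the unadjusted p of Kcnj6 was 0.0715 in the same test. That of Syt1 was 0.0467 with all libraries. Leaving out single libraries also moved Enah, Prkce, Prkcb, Dlg1, Fer, Syt1, Map2, Slc4a4 and Slc1a2 by over 1.5 times without a change of sign. None of the log2 fold changes of list genes passed (edgeR quasi-likelihood, Benjamini-Hochberg adjusted p of 0.703 or more).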

How the data were processed

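Per the labels' protocols, mouse brain RNA was enriched for circRNA, made into strand-marking libraries and sequenced in 150 bp paired reads. Tools named in the submitters' processing notes are STAR, cutadapt 1.9.3 and edgeR 3.16.5, with build mm39; no circRNA caller is named there. The deposited table holds counts of back-splice junction reads per circRNA and library, log2 CPM made by the authors in edgeR, as the deposited headers say (not used here), and a predicted length, another number of the deposited annotation. No listed circRNA stayed under 2 reads in every library; 338 had no gene name (0.690 to 0.828% of a library's reads) and stayed out of host sums.

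Counts were tested with edgeR 4.0.16 (quasi-likelihood, robust, TMM, no covariate; R 4.3.3) on circRNAs or host sums that reached 5 reads in 3 or more of 6 libraries, two-sided, over the whole table, at an adjusted p of 0.05. Of the 35 members 3 passed this filter. CPM of single circles and of host sums use the TMM factors of their own fits. Standard errors derive from the F statistic. Alternatives were other scalings and filters, DESeq2 1.42.0, a replicate block and leaving out each library; dropping the antisense circRNA was added after the data were seen. Counting intervals (95%, Wilson or exact) and floors (3 reads) cover counting error only, as PCR reads are not independent molecules. Code was tested on simulated counts. Exons were matched by span and length to GENCODE M21; coordinates are the table's, 1-based. Members and lists were chosen with earlier results of these data known. Named were all tested Ptk2 circles, the 5 most read others, Ptk2b, the 3 nearest hosts and up to 4 most read tested genes per list (1 is not reported here but stays in its list's counts); other circles are named as examples chosen after their values were seen. Exact tests used scipy 1.17.1 and figures matplotlib 3.10.9.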

Additional observations from a re-analysis of the deposited data

How the results depend on the processing

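No circRNA passed with all libraries; with a filter of at least 10 reads 1 passed, and leaving out single libraries gave 0 to 1 (1 without A53T replicate 2 and 1 without A53T replicate 3), none of them from Ptk2 or Ptk2b. For host genes 0 passed under every alternative run. Without a filter on low counts, 214 of the 18136 circRNAs and 130 of the 5414 named hosts had an unadjusted p under 0.05. Both are smaller shares than the 4.7% of circRNAs and 4.79% of hosts with the filter. Same-numbered libraries did not vary together (correlations of deviations from -0.03 to 0.02 over circRNAs), so no pairing by replicate number was seen. With counts this low the check cannot exclude one. With the replicate number as a block 0 circRNAs and 0 hosts passed. With pairs of equal number, the exact sign-flip p was 0.5 for the share of the most read Ptk2 circle, the number of circles of either gene and the Ptk2 to Ptk2b ratio. Leaving out single libraries gave log2 fold changes from -0.26 to 0.13 for Ptk2 exon 2 with the 122-nt exon, from -0.47 to 0.16 for exons 17 to 22, from -1.92 to -1.39 for exons 17 to 21 and from -0.38 to -0.15 for the Ptk2 sum. It gave log2 fold changes from -0.41 to 0.069 for Lpp and from -0.61 to 0.16 for Grin2b. Without the antisense circRNA, the Ptk2 sum stood at -0.29 and the share of its most read circle differed by 7.78 percentage points. Without a filter Ptk2b stood at -1.61 (edgeR quasi-likelihood, Benjamini-Hochberg adjusted p = 0.629). The share of the most read Ptk2b circle could not be tested, since A53T replicates 1 and 3 had no Ptk2b read. The cause of these changes was not tested.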
